A study of Mus musculus with 4 samples.

Results

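The prostaglandin synthesis and receptor genes described here are *Ptgs1*, *Ptgs2*, *Ptges*, *Ptgds*, *Hpgd*, *Ptger1*, *Ptger3*, *Ptger4* and *Ptgfr*, taken by symbol from the count tables, 9 of 31053 genes. Their RNA was counted by single-nucleus RNA-seq (snRNA-seq), which marks each RNA molecule of a nucleus with a unique molecular identifier (UMI), in kidneys of male mice 12 weeks old. A middle slice was cut and its cortex trimmed, so medullary cell types were enriched. Of 4 mice, 2 were controls without Cre that carried floxed alleles of *Tfap2a* (Cre-, Tfap2a fl/fl), and 2 were Hoxb7Cre+;Tfap2a fl/fl knockout mice, in which the *Hoxb7* promoter drives Cre in the collecting duct and lower urinary tract epithelia. The floxed alleles were thus shared by both groups, none of the mice had a treatment in the labels, and each mouse gave 1 library. The comparisons ask in which kidney cell types each gene of the pathway was read, and whether loss of the AP-2 transcription factor in the collecting duct went with a change.

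Prostaglandins are made from arachidonic acid, which cyclooxygenases turn into a common precursor and terminal synthases then turn into PGE2, PGD2 and other products. Each product acts close to where it is made, through receptors coupled to G proteins, and is inactivated by a dehydrogenase after uptake into cells. In the kidney PGE2 is known for its high production in the collecting duct and the medullary interstitium, where it limits salt reabsorption by the thick ascending limb and the water permeability brought about by vasopressin in the collecting duct.

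Since the deleted gene encodes an AP-2 factor, the letters before the gene starts were searched for the AP-2 consensus GCCNNNGGC, which reads the same on both strands. The 250 bases before the start were taken from RefSeq (GRCm38.p6, the assembly of mm10) for the 8 genes with an entry there, which leaves out *Ptger1*. The start is that of the transcript in the RefSeq table, and the gene positions given further on are the outer bounds of the gene. For *Ptges*, *Ptgs1* and *Ptgds* the whole stretch, and for *Ptger3* its end, thus lie within the gene. The motif was found before 2 of these 8 starts, and before 13.7% of all 32851 starts in the same table. Both matches are shown, in capitals, with a pair of sequences without a match for the synthase and the receptor whose values the results turn on most. They are chr1:150099781-150100030 (plus strand) for *Ptgs2*, chr8:56294302-56294551 (plus strand) for *Hpgd*, chr2:30903298-30903547 (minus strand) for *Ptges* and chr3:157566626-157566875 (plus strand) for *Ptger3*, each written 5′ to 3′.
Ptgs2: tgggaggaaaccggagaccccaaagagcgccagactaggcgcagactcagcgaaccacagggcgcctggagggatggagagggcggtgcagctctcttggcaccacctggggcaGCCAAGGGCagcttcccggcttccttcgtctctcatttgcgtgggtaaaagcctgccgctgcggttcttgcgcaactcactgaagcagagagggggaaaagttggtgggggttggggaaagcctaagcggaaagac
Hpgd: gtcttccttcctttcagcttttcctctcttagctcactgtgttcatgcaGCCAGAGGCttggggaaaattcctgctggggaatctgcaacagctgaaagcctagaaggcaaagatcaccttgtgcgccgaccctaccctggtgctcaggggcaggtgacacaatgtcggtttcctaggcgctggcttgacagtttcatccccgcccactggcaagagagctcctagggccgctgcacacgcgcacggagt
Ptges: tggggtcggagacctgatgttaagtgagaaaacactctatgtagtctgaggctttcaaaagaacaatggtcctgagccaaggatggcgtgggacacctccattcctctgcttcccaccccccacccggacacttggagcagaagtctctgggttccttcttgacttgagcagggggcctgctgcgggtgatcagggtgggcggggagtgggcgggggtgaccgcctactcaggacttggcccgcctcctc
Ptger3: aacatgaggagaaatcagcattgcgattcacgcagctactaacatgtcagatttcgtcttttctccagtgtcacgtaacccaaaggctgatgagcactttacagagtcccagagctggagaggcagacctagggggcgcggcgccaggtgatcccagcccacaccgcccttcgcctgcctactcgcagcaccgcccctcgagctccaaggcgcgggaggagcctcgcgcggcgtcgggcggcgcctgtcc
The match before *Ptgs2* starts at -136 and that before *Hpgd* at -201, counted from the gene start. A match is a description of these letters and not a binding site.

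The libraries held between 22179410 and 44964099 UMIs, and 27341 nuclei were kept, with a median of 2628 UMIs and 1577 genes. The nuclei held from 48.2% to 84.2% of the UMIs of their library, and the median mitochondrial share was 1.66% and 0.671% in control mice 1 and 2 and 1.05% and 0.417% in knockout mice 1 and 2. Pairs of libraries shared between 7 and 18 barcodes. Clusters were named from marker lists into 12 classes, without use of the genes of the pathway, and levels are given as counts per 1000000 UMIs of the class (CPM). The share of free RNA in a class sum of 1 mouse was estimated at between 0% and 41.7%, with a median of 12.0%, and free RNA itself held *Ptger3* at 123, 181, 114 and 261 CPM but no other of the 9 genes at over 33.8 CPM. Here and below, 4 values stand for control 1, control 2, knockout 1 and knockout 2, in this order, and a mean ± SD is over these 4 mice. In collecting duct principal cells (CD-PCs) *Tfap2a* had 56.7, 101, 68.8 and 113 CPM, but RNA that lacks only the floxed exons is still counted, so this does not check the genotype. In the deep medullary epithelium of the pelvis (DMEP), the urothelium-type lining, it had 41.1, 25.7, 0 and 0 CPM, with 10 and 11 UMIs in control mice and 0 in both knockout mice, where 3 UMIs, the limit that a count of 0 allows, would be 22.2 and 18.6 CPM.

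In all nuclei the genes of this pathway had from 25 UMIs for *Ptgs2* to 18789 UMIs for *Ptger3*, and each of the 9 had its own order of cell types. *Ptgs1*, *Ptges* and *Ptger1* had their highest mean in CD-PCs, *Ptgds* and *Ptger3* in the thick ascending limb (TAL), *Ptgfr* in the distal convoluted tubule (DCT), *Ptger4* in podocytes, *Hpgd* in immune and interstitial cells, and *Ptgs2* in interstitial cells. Levels were compared between classes for the same gene only, and positions of genes are those of GRCm38.p6. Each class was tested against the next in the order of means by edgeR's quasi-likelihood test with the mouse as a term. All classes shared the same fit, with the spread of a gene pooled over them, and "beyond the spread" below refers to this pooled spread. P-values were adjusted over all genes, and 16 of 88 pairs of neighbors differed (adjusted p under 0.05). Over all genes, 24.4% of these same contrasts were called. Of the 16 differences, 10 were called in every alternative setting that was tried and 6 were not.

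**Figure D1:**
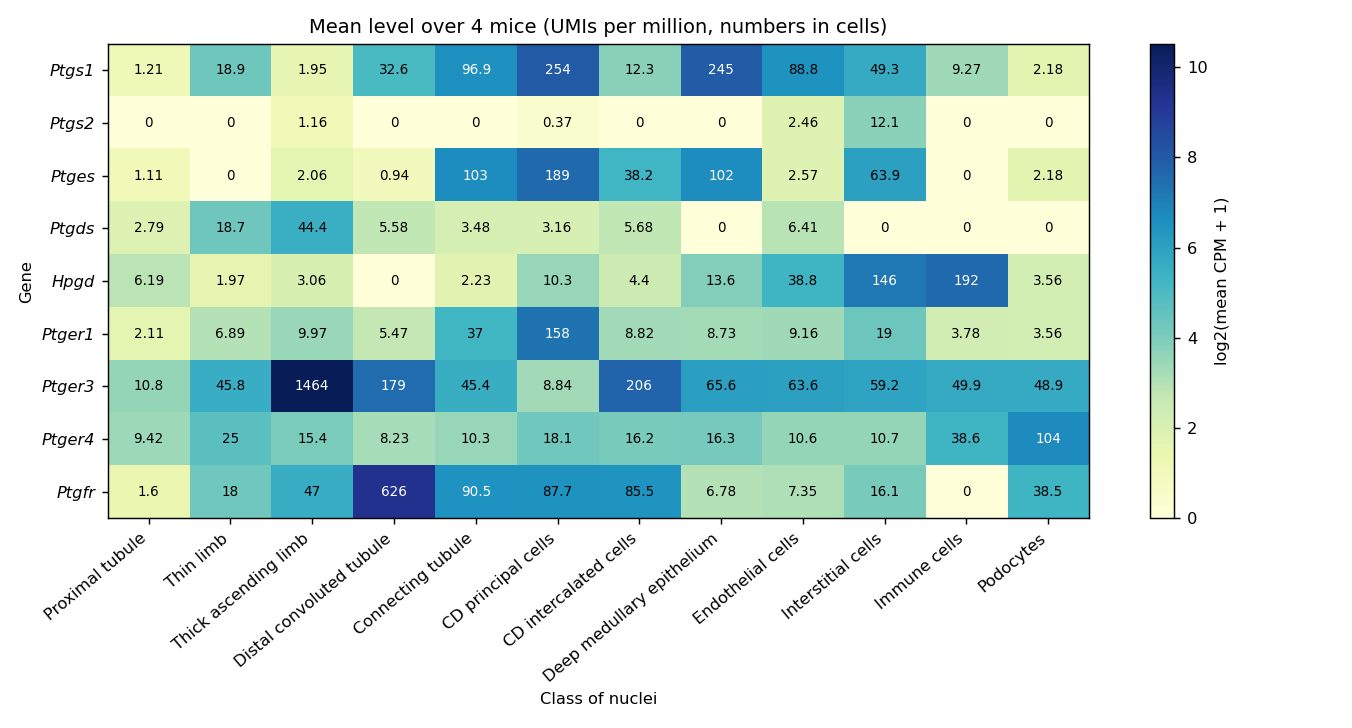
Mean level of each of the 9 genes (rows) in the 12 cell classes (columns), written in each cell as CPM over 4 mice and colored by log2(mean CPM + 1). *Ptgs1*, *Ptges* and *Ptger1* are highest in CD-PCs, *Ptger3* in the TAL at 1464 CPM and *Ptgfr* in the DCT at 626 CPM.

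*Ptgs1* (ENSMUSG00000047250, chr2:36216742-36258593) encodes cyclooxygenase-1, the constitutive form of the enzyme that makes the common precursor. In CD-PCs it had 243, 294, 266 and 213 CPM, a mean of 254 ± 34.6. In the DMEP it had 123, 312, 118 and 427 CPM. CD-PCs were even across mice, while the DMEP was high in one mouse of each genotype and low in the other, and the log2 difference of these classes was 0.11 (SE 0.18, adjusted p = 0.811). The next class, the connecting tubule (CNT), had 96.9 ± 24.8 CPM and lay below the DMEP by a log2 of 1.17 (SE 0.21, adjusted p = 7.9e-07). This SE comes from the spread pooled over classes and does not reflect the wide spread of the DMEP. Endothelial cells followed at 88.8 ± 18.8 CPM and did not differ from the CNT beyond the spread, then interstitial cells at 49.3 ± 13.3 CPM. The step from endothelial to interstitial cells was called (log2 1.06, adjusted p = 0.0234), but not without control 1 (log2 0.95, adjusted p = 0.103). Of the segments before the CNT, the DCT had 32.6 ± 19.5 CPM of *Ptgs1*, the TAL 1.95 ± 0.77 CPM and the proximal tubule 1.21 ± 0.24 CPM.

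*Ptgs2* (ENSMUSG00000032487, chr1:150100031-150108234) encodes cyclooxygenase-2, the inducible form, known in the kidney for the macula densa and medullary interstitial cells. It was read in 19 nuclei in all, with 25 UMIs. Of these nuclei 8 were in the TAL, 6 were endothelial and 3 interstitial, and 2 were CD-PC nuclei, 1 of them in a subcluster set aside. Of the 8 TAL nuclei with *Ptgs2*, 6 also had *Nos1*, the nitric oxide synthase of the macula densa. In 5 there was *Pappa2*, a protease gene on the marker lists of both the macula densa and the cortical TAL. Among the 5186 TAL nuclei without *Ptgs2* these were 34 nuclei (0.656%) and 26 nuclei (0.501%). The nuclei with both *Ptgs2* and *Nos1* came from each of the mice, with 1, 2, 2 and 1. *Avpr1a* and *Robo2*, also on the marker list of the macula densa, were not counted in these nuclei. Proximal tubule nuclei had 0 UMIs of *Ptgs2*, where 3 UMIs, the limit that a count of 0 allows, would be from 0.216 to 0.412 CPM. The means in interstitial cells (12.1 ± 14.3 CPM), endothelial cells (2.46 ± 2.26 CPM) and the TAL (1.16 ± 0.49 CPM) rest on between 5 and 12 UMIs each, and neighbors in this order did not differ beyond the spread.

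*Ptges* (ENSMUSG00000050737, chr2:30889471-30931020) encodes the microsomal synthase that makes PGE2. It had 253, 154, 148 and 202 CPM in CD-PCs and 96.3, 149, 94.3 and 71.3 CPM in the CNT. Each mouse had more in CD-PCs than in the CNT, a log2 difference of 0.77 (SE 0.19, adjusted p = 0.00048). The DMEP had 102 ± 23.5 CPM, interstitial cells 63.9 ± 36.9 CPM and collecting duct intercalated cells (ICs) 38.2 ± 29.1 CPM, and these neighbors did not differ beyond their spread. Below them was a wide step, to 2.57 ± 2.09 CPM in endothelial cells (log2 3.88, SE 0.47, adjusted p = 1.7e-13). The 1.11 to 2.06 CPM of *Ptges* in the proximal tubule and the TAL lay far below its level in free RNA, which was from 7.14 to 28.0 CPM. CD-PCs, the CNT and the DMEP lay above free RNA in each mouse, while ICs and interstitial cells did so in 3 mice and in knockout 2 were below it, at 10.2 and 13.99 CPM.

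*Ptgds* (ENSMUSG00000015090, chr2:25466709-25470110) encodes the lipocalin-type synthase of PGD2. The TAL had 45.4, 38.3, 38.3 and 55.6 CPM, and every other class had a lower mean. The thin limb was next with 19.9, 7.83, 8.92 and 38.1 CPM, a log2 difference of 1.58 (SE 0.31, adjusted p = 9.1e-06). The step from the thin limb to endothelial cells was called too (log2 1.37, adjusted p = 0.0208), but not without control 1 (log2 1.26, adjusted p = 0.111) or without knockout 2 (log2 0.72, adjusted p = 0.438). No other class had a mean above 6.41 CPM of *Ptgds*, and free RNA held it at between 19.8 and 30.6 CPM. Podocytes, immune cells, interstitial cells and the DMEP had 0 UMIs of it.

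*Hpgd* (ENSMUSG00000031613, chr8:56294552-56321046) encodes the dehydrogenase that starts the breakdown of prostaglandins. Interstitial cells had 141, 102, 172 and 168 CPM, with each mouse above its own endothelial cells at 22.0, 80.6, 19.9 and 32.6 CPM (log2 1.89, SE 0.32, adjusted p = 5.1e-07). In immune cells the mean was higher still, at 192 ± 233 CPM, but the mice were far apart, with 176, 525, 15.1 and 51.1 CPM from 8, 18, 1 and 1 UMIs in 29, 21, 46 and 12 nuclei. Immune and interstitial cells could not be told apart by the test, whose spread is pooled over classes and is not that of the immune cells. The fitted log2 difference was -0.11 (SE 0.40), opposite in sign to that of the means. Endothelial cells were above the DMEP (13.6 ± 12.7 CPM) by a log2 of 1.24 (adjusted p = 0.021), a call lost without control 2 (log2 1.73, adjusted p = 0.0735). Proximal tubule cells had 6.19 ± 3.04 CPM, and the DCT had 0 UMIs of *Hpgd*.

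Of the receptors, *Ptger1* (ENSMUSG00000019464, chr8:83666644-83672756) encodes EP1, the PGE2 receptor that raises cell calcium. CD-PCs had 235, 109, 123 and 166 CPM. The CNT was next with 27.8, 40.6, 27.3 and 52.4 CPM, lower in every mouse, with a log2 difference of 1.94 (SE 0.23, adjusted p = 6.8e-14). Interstitial cells had 18.99 ± 7.31 CPM, and all other classes had less than 10 CPM, below the 12.7 to 26.0 CPM of free RNA.

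*Ptger3* (ENSMUSG00000040016, chr3:157566821-157644758) encodes EP3, the PGE2 receptor that lowers cyclic AMP. It had 1496, 1768, 1221 and 1372 CPM in the TAL and 243, 152, 229 and 201 CPM in ICs, the class next in the order. The groups of values were far apart, with a log2 difference of 2.998 (SE 0.18, adjusted p = 2.2e-38). ICs did not differ from the DCT, at 179 ± 47.2 CPM, beyond the spread. The DCT was above the DMEP, at 65.6 ± 14.9 CPM, by a log2 of 1.71 (SE 0.27, adjusted p = 1.1e-08), and the CNT at 45.4 ± 34.2 CPM was above the proximal tubule at 10.8 ± 3.41 CPM (log2 1.90, adjusted p = 1.0e-10). The last difference was called in every alternative, but its log2 size was 0.93 with called doublets left out (adjusted p = 0.0065) and 4.55 with free RNA subtracted. From the DMEP down, every class lay below the level of *Ptger3* in free RNA. ICs and the DCT were above it in control 1 and knockout 1 but below it in control 2 and knockout 2. With free RNA subtracted, ICs kept 267, 148, 249 and 194 CPM and the DCT 215, 114, 173 and 229 CPM. CD-PCs had 3.29, 10.8, 6.66 and 14.7 CPM, the lowest mean of the 12 classes, and with free RNA subtracted 0 CPM was left in 3 mice and 3.06 CPM in knockout 2.

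*Ptger4* (ENSMUSG00000039942, chr15:5233399-5244187) encodes EP4, the PGE2 receptor that raises cyclic AMP. Its means lay between 8.23 and 24.97 CPM in all tubular classes. Podocytes had 113, 57.1, 71.3 and 175 CPM from 31 UMIs, and immune cells were next with 38.6 ± 10.7 CPM from 6 UMIs. The difference was called (log2 1.80, SE 0.61, adjusted p = 0.0384), but 8 of 9 alternatives lost the call, and without each mouse in turn the log2 difference was between 1.63 and 2.00 with adjusted p from 0.0713 to 0.17. No other neighbors in the order of *Ptger4* differed beyond the spread.

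*Ptgfr* (ENSMUSG00000028036, chr3:151798610-151837528) encodes FP, the receptor of PGF2alpha, which raises cell calcium. The DCT had 639, 567, 543 and 752 CPM. The CNT followed at 111, 78.4, 97.0 and 75.5 CPM, a log2 difference of 2.79 (SE 0.19, adjusted p = 5.0e-32). CNT, CD-PCs (87.7 ± 36.5 CPM) and ICs (85.5 ± 17.9 CPM) could not be separated. ICs were above the TAL, at 47.0 ± 7.001 CPM, by a log2 of 0.65 (adjusted p = 0.011), a call lost without control 1 (log2 0.60, adjusted p = 0.0536) and without knockout 1 (log2 0.48, adjusted p = 0.155). *Ptgfr* had 1.60 ± 0.91 CPM in the proximal tubule and 0 UMIs in immune cells.

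The class of CD-PCs hides different cells, and the genes of the pathway split over them. Its 1211 nuclei are given under 5 names, which are called subclusters here and below. One with CCD markers is called CCD-like (189 nuclei). The IMCD-like nuclei (434 nuclei), with IMCD markers such as *Cryab* and *Slc14a2*, are a pool of separate clusters of 243 and 191 nuclei. These had 7425 and 3342 CPM of *Aqp2* and 192 and 26.6 CPM of *Aqp3*, so the pool is not uniform. Whether the genes of the pathway differed between them was not tested. Another subcluster is called Aqp3-high since it had the highest *Aqp3* (309 nuclei). It had 5 CCD and 3 OMCD markers, from lists of unlike length that share *Scnn1b*. The others are called by their leading genes, Gsdmc2-led (217 nuclei) and Grid1-led (62 nuclei, 36 of them from control 2). *Ptges* was high in the IMCD-like and Gsdmc2-led nuclei, *Ptgfr* in the Aqp3-high and CCD-like nuclei, and *Ptgs1* was read in all subclusters. Between neighbors in the order of subclusters 6 of 32 pairs differed, where 14.6% of all such contrasts were called over all genes, and 1 of the 6, for *Ptgfr*, was called in every alternative.

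**Figure D2:**
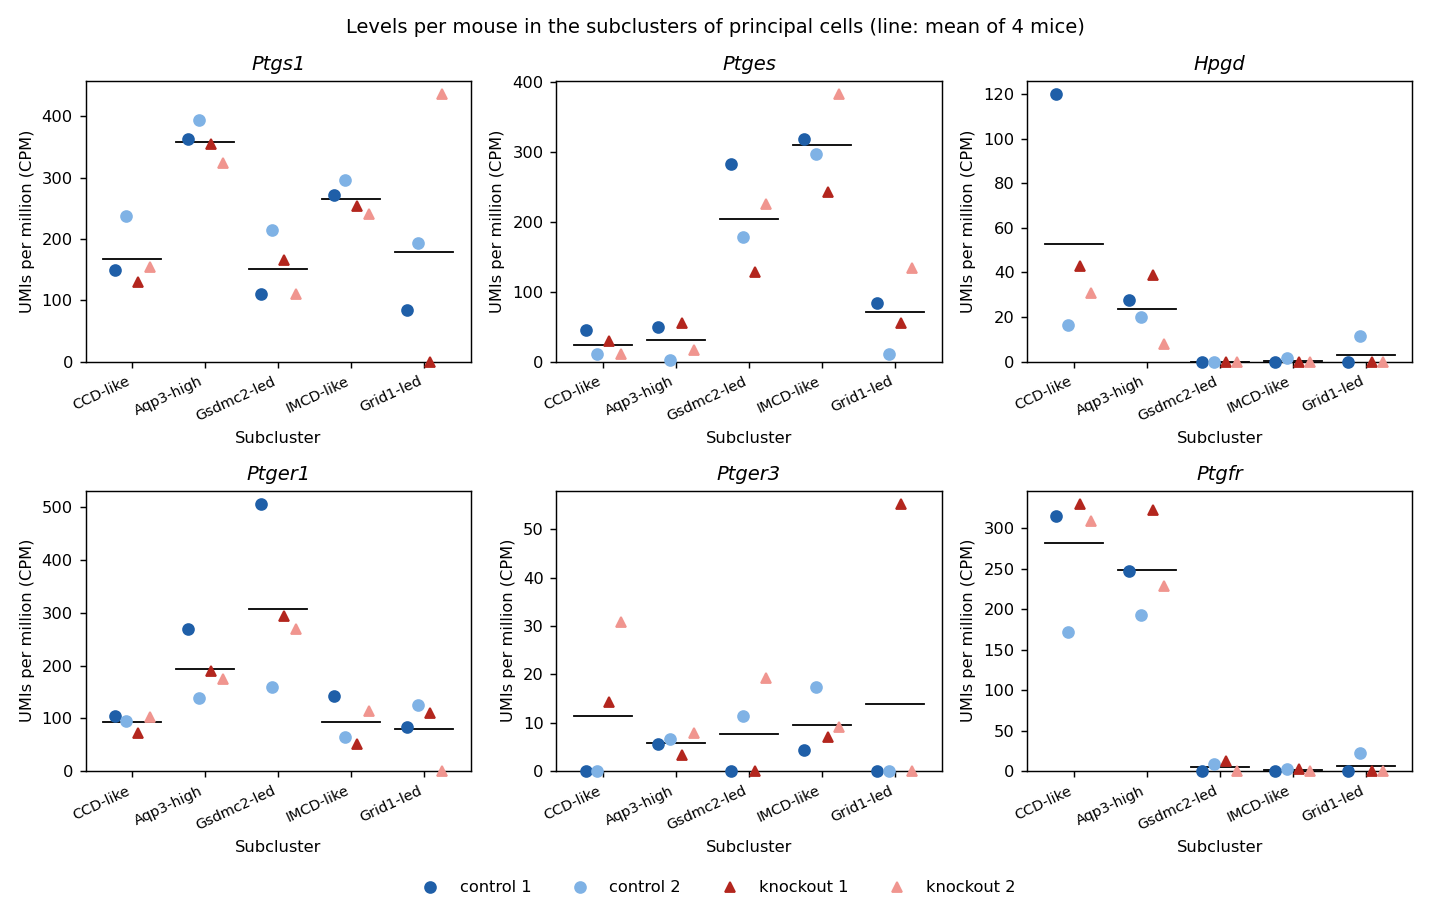
Levels of members of the pathway in the 5 named CD-PC subclusters (x axis), in CPM of the subcluster (y axis). Each point is 1 mouse and the black line the mean of 4 mice. The IMCD-like subcluster is a pool of separate clusters. *Ptges* is high in the IMCD-like and Gsdmc2-led subclusters, and *Ptgfr* in the Aqp3-high and CCD-like subclusters.

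The IMCD-like nuclei had 317, 296, 242 and 382 CPM of *Ptges*. The Aqp3-high nuclei had 49.5, 2.20, 54.8 and 15.8 CPM and the CCD-like nuclei 45.0, 11.1, 28.7 and 10.3 CPM. The lowest IMCD-like value was thus well above the highest of both others, and both others lay below the free RNA of their own mouse in control 2 and knockout 2. IMCD-like against Aqp3-high nuclei gave a log2 difference of 3.45 (SE 0.28, adjusted p = 1.2e-18), in a contrast that called 29.4% of all genes. Against CCD-like nuclei it was 4.08 (SE 0.39, adjusted p = 6.2e-24), where 35.0% of all genes were called. The Gsdmc2-led nuclei held *Ptges* at 204 ± 66.1 CPM, and the step from IMCD-like to Gsdmc2-led nuclei (log2 0.62, adjusted p = 0.0449) was lost in 7 alternatives, among them without control 2 (log2 0.51, adjusted p = 0.357), without knockout 1 (log2 0.56, adjusted p = 0.133) and without knockout 2 (log2 0.56, adjusted p = 0.183).

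*Ptgfr* went the other way. It had 248, 193, 322 and 229 CPM in Aqp3-high nuclei and 315, 172, 330 and 309 CPM in CCD-like nuclei, but 0, 2.90, 2.35 and 0 CPM in IMCD-like nuclei, where 3 UMIs were counted in all. The fitted log2 differences of IMCD-like nuclei were -7.04 (SE 0.38, adjusted p = 1.8e-29) from Aqp3-high and -6.97 (SE 0.47, adjusted p = 4.7e-48) from CCD-like nuclei. With so few UMIs on one side their size depends on the fit, but their sign was the same in each mouse. *Hpgd*, for breakdown, had the same direction, with 17 UMIs in CCD-like, 27 in Aqp3-high and 1 in IMCD-like nuclei (adjusted p = 5.0e-06 against Aqp3-high and 1.1e-07 against CCD-like nuclei).

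*Ptger1* was highest in the Gsdmc2-led nuclei, with 507, 159, 294 and 268 CPM, then in Aqp3-high nuclei, with 269.6, 138, 190.1 and 174 CPM. CCD-like nuclei (93.5 ± 15.2 CPM) and IMCD-like nuclei (93.3 ± 42.1 CPM) had less and did not differ, with a log2 difference of 0.04 (SE 0.32). IMCD-like nuclei were below Aqp3-high nuclei by a log2 of -1.08 (SE 0.20, adjusted p = 7.9e-06). The step from Gsdmc2-led to Aqp3-high nuclei was called (log2 0.63, adjusted p = 0.0295), but not without control 1 (log2 0.35, adjusted p = 0.483), without control 2 (log2 0.70, adjusted p = 0.0658) or without knockout 2 (log2 0.55, adjusted p = 0.14).

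*Ptgs1*, for the first step of synthesis, was high in both of the larger subclusters. It had 363, 393, 354 and 324 CPM in Aqp3-high nuclei and 272, 296, 254 and 241 CPM in IMCD-like nuclei. Every Aqp3-high value was the higher one, but the log2 difference of -0.39 (SE 0.17) had an adjusted p of 0.0713 by edgeR's quasi-likelihood test. CCD-like nuclei had 168 ± 48.1 CPM, less than IMCD-like nuclei by a log2 of 0.78 (adjusted p = 0.0091), a call lost without control 1 (log2 0.68, adjusted p = 0.0515) and without knockout 1 (log2 0.66, adjusted p = 0.0598). *Ptger3* stayed between 5.80 and 13.8 CPM in all 5 subclusters.

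Within the TAL, the IC and the endothelial class, the clusters were compared too, since several of the genes differed between them. In these comparisons and those of the IMCD-like nuclei above, 21 of 53 differences were called, 16 of them in every alternative. Over all genes, these contrasts called from 4.06% to 35.0%. The contrasts were chosen after the values were seen, so the count of 21 is a description only. TAL nuclei formed a cluster led by *Rgs7* (3729 nuclei), one led by *Thsd4* and *Robo2* (923 nuclei) and one led by *Nrxn3* with *Enox1*, a marker of the cortical TAL (542 nuclei). Set against the clusters of all kidney cells, *Enox1* was among the leading genes of the Thsd4-led cluster as well, so it does not mark the Nrxn3-led cluster alone. *Ptger3* had 1642, 1936, 1398 and 1409 CPM in the Rgs7-led cluster, 1692, 1686, 1452 and 1848 CPM in the Thsd4-led cluster and 295, 475, 159.9 and 374 CPM in the Nrxn3-led cluster. The first was above the last by a log2 of 2.36 (SE 0.11, adjusted p = 4.2e-103), with 10.9% of all genes called. The second was above the last by 2.38 (SE 0.09, adjusted p = 2.1e-166), with 4.06% of all genes called. Both SEs and p-values are of edgeR's quasi-likelihood fit, which draws on all genes for the spread. They are not measures of the spread between 4 mice. Between the first and the second the log2 difference was -0.06 (SE 0.08, adjusted p = 0.759), in a contrast that called 10.6% of all genes.

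*Ptgds* separated the TAL in another way. It had 63.1, 48.1, 57.4 and 73.7 CPM in the Rgs7-led cluster, but 9.35 ± 4.27 CPM in the Thsd4-led and 4.86 ± 1.55 CPM in the Nrxn3-led cluster (log2 2.69 with SE 0.27 and 3.63 with SE 0.39, adjusted p = 7.8e-22 and 4.8e-19). Of the 8 TAL nuclei with *Ptgs2*, 7 were in the Thsd4-led cluster, which was led by the macula densa marker *Robo2*, and the Rgs7-led cluster was below it by a log2 of -4.49 (SE 1.11, adjusted p = 0.00095). With 11 UMIs against 1, the size of this difference depends on the fit. The Nrxn3-led cluster had 0 UMIs of *Ptgs2*, and its difference from the Thsd4-led cluster was not called (adjusted p = 0.152).

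**Figure D3:**
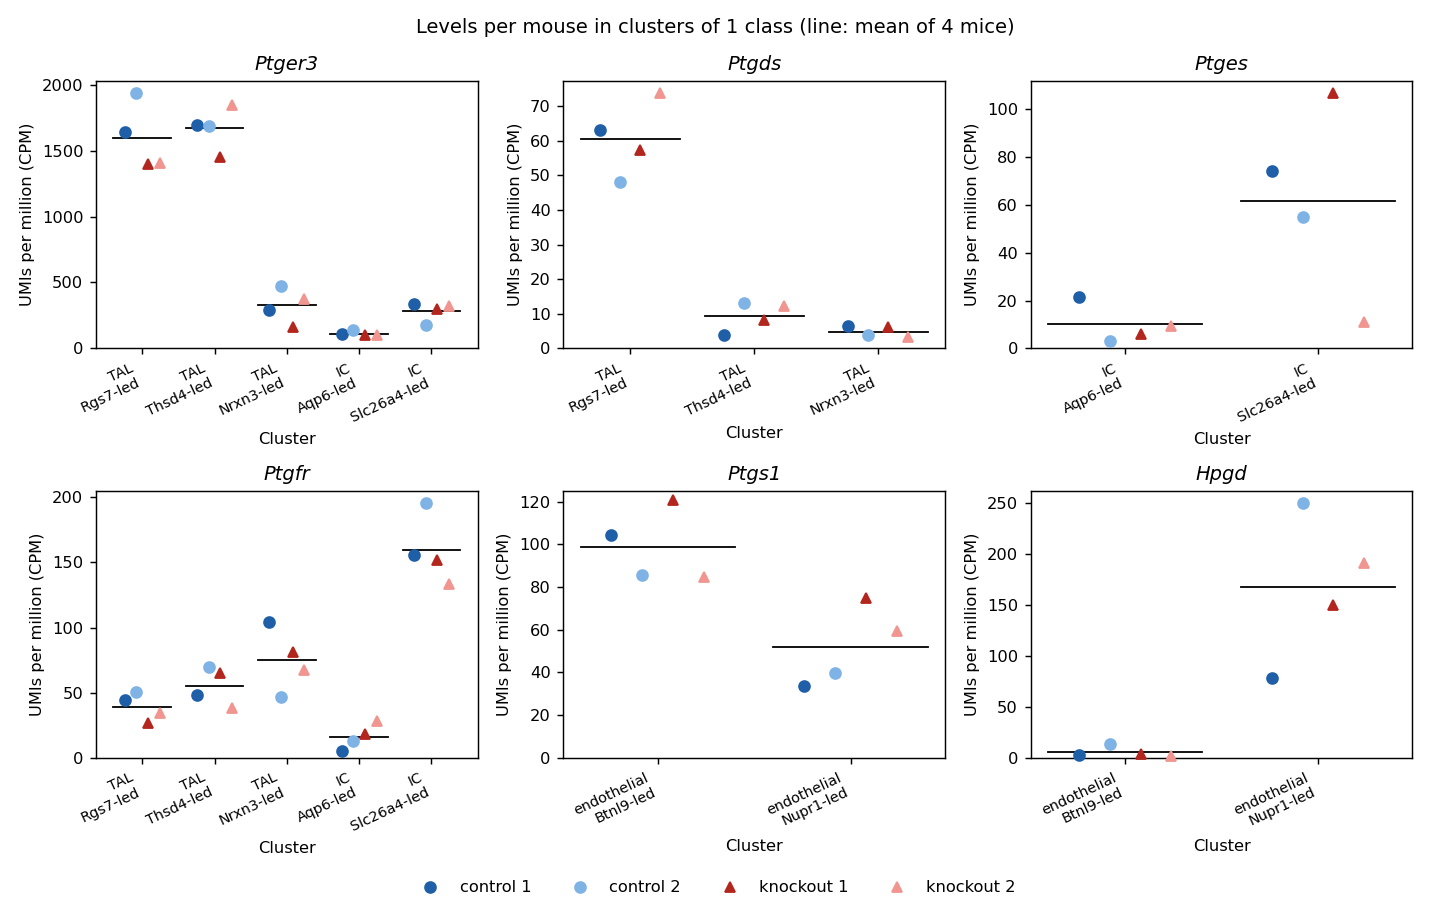
Levels of members of the pathway in clusters of the TAL, the ICs and the endothelial cells (x axis, called by leading genes), in CPM of the cluster (y axis); each point is 1 mouse and the black line the mean of 4 mice. *Ptger3* is lower in the Nrxn3-led TAL cluster than in the other TAL clusters in each mouse.

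ICs formed a cluster led by *Slc26a4*, the apical exchanger of type B cells (261 nuclei), and one led by *Aqp6*, with *Slc4a1* of type A cells (393 nuclei). *Ptgfr* had 156, 196, 152 and 134 CPM in the Slc26a4-led and 5.33, 12.7, 18.4 and 28.2 CPM in the Aqp6-led cluster, a log2 difference of 3.30 (SE 0.35, adjusted p = 4.3e-13), with 10.5% of all genes called. *Ptger3* was higher in the Slc26a4-led cluster as well, at 284 ± 71.6 against 111 ± 19.9 CPM (log2 1.35, SE 0.23, adjusted p = 2.6e-06). *Ptges* had 74.1, 54.8, 107 and 11.1 CPM there against 21.3, 3.19, 6.14 and 9.38 CPM (log2 2.58, SE 0.50, adjusted p = 3.5e-05), with knockout 2 at 2 UMIs.

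Endothelial nuclei formed a large cluster led by *Btnl9* (1391 nuclei) and a small one led by *Nupr1*, with the urea transporter *Slc14a1* and *Aqp1* among its leading genes (292 nuclei). *Hpgd* had 78.3, 249.8, 149.6 and 191 CPM in the small cluster and 2.58, 13.5, 3.94 and 2.29 CPM in the large one, higher in the small cluster of each mouse (log2 4.77, SE 0.38, adjusted p = 1.4e-33), with 15.2% of all genes called. *Ptgs1* was lower in the small cluster, at 51.9 ± 18.9 against 98.9 ± 17.2 CPM (log2 -1.15, SE 0.31, adjusted p = 0.0024), a call lost without control 1 (log2 -0.89, adjusted p = 0.128). All 6 endothelial nuclei with *Ptgs2* were in the small cluster.

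Of the other genes of the pathway, 20 of the list were in the files, and 11 had at least 50 CPM in a class. For the supply of arachidonic acid, the phospholipase gene *Pla2g4a* had its highest mean in interstitial cells (189 ± 113 CPM), followed by the DMEP (136 CPM). Of the genes of other products, the thromboxane synthase gene *Tbxas1* was highest in the TAL (152 ± 15.4 CPM) and the DCT (143 CPM), the prostacyclin synthase gene *Ptgis* in interstitial cells (54.8 ± 19.1 CPM), and the reductase genes *Cbr1* and *Akr1b3* in CD-PCs (141 ± 37.2 CPM) and the thin limb (4069.6 ± 928 CPM). *Akr1b3* had 3749 CPM in CD-PCs and is better known as aldose reductase, which makes an osmolyte, and it stood on the marker list of the IMCD. The cytosolic PGE2 synthase gene *Ptges3* was highest in CD-PCs (139 ± 9.16 CPM).

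Among genes of transport and breakdown, the transporter gene *Slco2a1*, which carries prostaglandins into cells, was highest in podocytes (242 ± 52.1 CPM) and interstitial cells (185 CPM), and *Abcc4*, which exports them, in the DMEP (506 ± 115 CPM) and CD-PCs (387 CPM). *Ptgr2* and *Zadh2*, reductases of later steps, had 105 ± 7.92 and 69.8 ± 6.63 CPM in the TAL. The thromboxane receptor gene *Tbxa2r* was highest in endothelial cells (117 ± 33.2 CPM). The other PGE2 receptor gene, *Ptger2*, had 26 UMIs, the prostacyclin receptor gene *Ptgir* had 15, and the PGD2 receptor genes *Ptgdr* and *Ptgdr2* had 0.

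Genes whose mean levels over the 12 classes were most like those of each member are named as a description, by Pearson's r of log2(CPM + 10) over 12 classes that share their libraries. *Ptger1* was most like *Aqp2* (r = 0.94), *Mgat4c* (0.94) and *Avpr2* (0.92), of which *Aqp2* and *Avpr2* encode the water channel and the vasopressin receptor of principal cells. *Ptgs1* was most like *Gprc5b* (0.89), *Cd9* (0.89) and *Sgk1* (0.87), and *Ptges* most like *Lypd6* (0.93), *Pde8b* (0.93) and *Tbx2* (0.90). *Ptgds* was most like *Gm12927* (0.97), *Ppp1r1b* (0.94) and *Slc6a17* (0.93), and *Ptger3* most like *Hsd17b14* (0.91), *Prelid2* (0.90) and *Bclaf3* (0.89). *Ptgfr* was most like *Hoxd8* (0.91), *Pamr1* (0.87) and *Hoxd3os1* (0.87), *Ptger4* most like *Metrnl* (0.96), *Gabrb1* (0.94) and *Akt2* (0.94), and *Hpgd* most like *Ifi27l2a* (0.97), *Rasa3* (0.97) and *Gm14005* (0.96). *Ptgs2*, with its few UMIs, was most like *Fbn1* (0.98), *Adam12* (0.98) and *Lsamp* (0.98).

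Between knockout and control mice, no difference of a gene of the pathway was called in any class. Of the 69 pairs of a gene and a class with at least 10 UMIs, 0 were called by edgeR's quasi-likelihood test (adjusted p from 0.538), 4 had an unadjusted p under 0.05, against 2.95% of all genes, and DESeq2 called 0 as well, with 2 at an unadjusted p under 0.05. Over all genes, 0.00382% were called, so few calls were made of any gene. Of the 24 pairs with at least 100 UMIs, 18 had a log2 fold change within 0.5 of 0, and the range was from -0.91 to 0.84 with a median SE of 0.33. The fitted value was higher in knockout mice in 8 of the 24, and the median log2 fold change was -0.16. In 8 of the 24 the mice of the groups did not overlap, against 27.0% of all genes with as many UMIs. With 2 mice a group, an exact permutation test cannot give a p below 0.33.

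**Figure D4:**
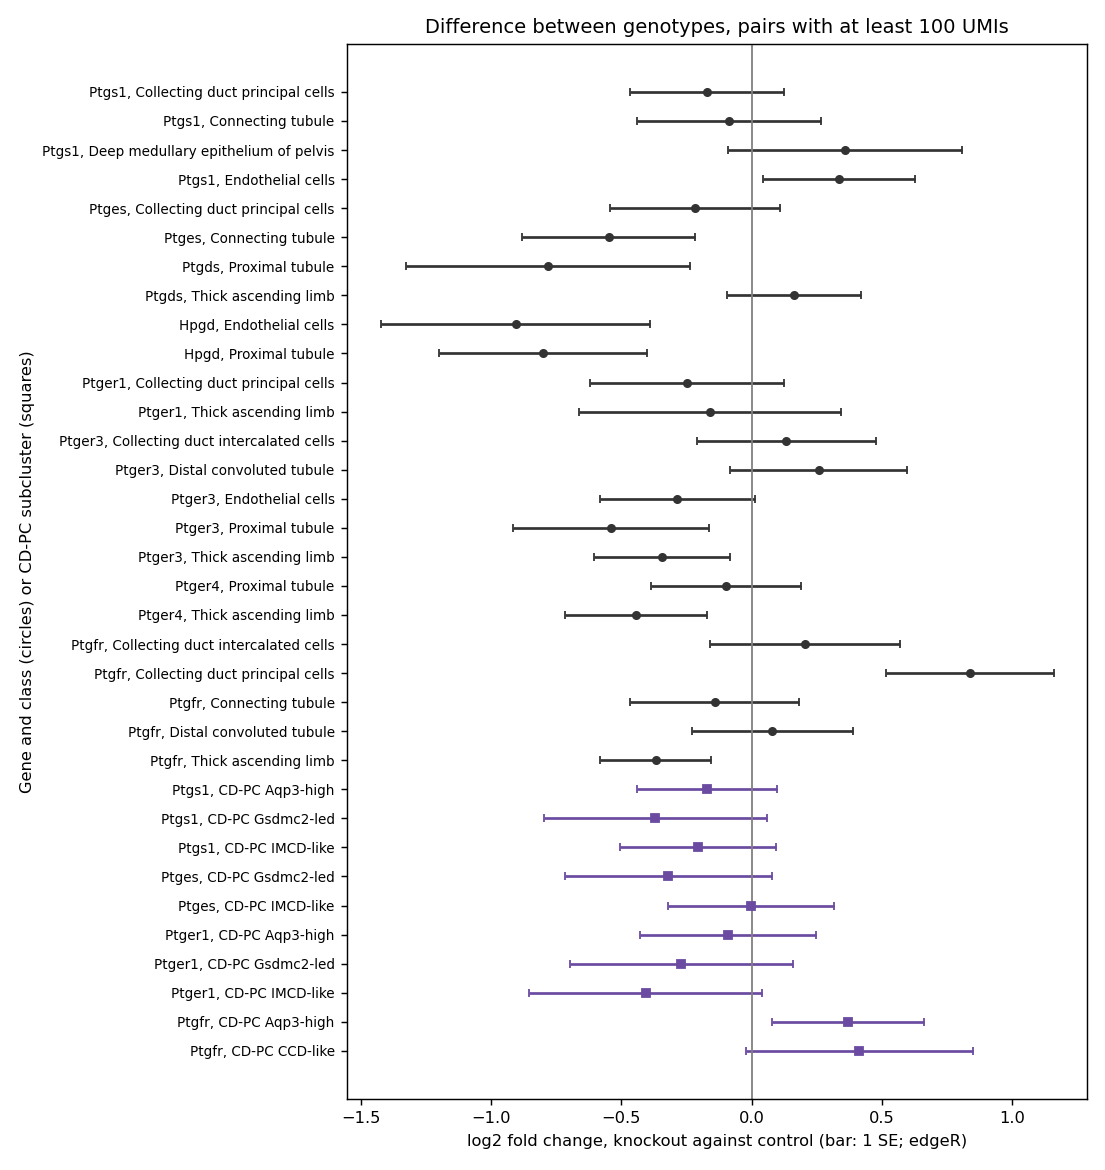
Log2 fold change of knockout against control mice for pairs of a pathway gene and a class or CD-PC subcluster with at least 100 UMIs; points are the fitted values of edgeR and bars 1 standard error on each side. Of the 24 pairs in classes 18 lie within 0.5 of 0, as do all 10 in subclusters.

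*Ptger3* in the TAL, with 16042 UMIs the best read pair, had means of 1632 ± 192 CPM in control and 1296 ± 107 CPM in knockout mice (log2 -0.34, SE 0.26), and the lowest control value was above the highest knockout value. *Ptgfr* in the DCT had 603 ± 51.2 and 648 ± 148 CPM (log2 0.08, SE 0.31). In CD-PCs, where Cre is active, *Ptgs1* had 269 ± 36.0 and 239 ± 38.0 CPM (log2 -0.17, SE 0.30), *Ptges* 203 ± 70.3 and 175 ± 38.7 CPM (log2 -0.22, SE 0.33) and *Ptger1* 172 ± 89.2 and 144 ± 30.03 CPM (log2 -0.25, SE 0.37). The control and knockout values of each of these CD-PC genes overlapped, and each had an adjusted p of 1.00 by edgeR's quasi-likelihood test.

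Of the 4 pairs with an unadjusted p under 0.05, the largest log2 change was that of *Hpgd* in immune cells, with the values given above (log2 -3.68, SE 0.91, adjusted p = 0.538), which rests on 26 UMIs in controls and 2 in knockouts. *Ptger3* in the CNT had 49.2, 91.9, 26.0 and 14.7 CPM (log2 -1.72, SE 0.46, adjusted p = 1.00), all at a level below that of free RNA. *Ptger4* in the CNT had 18 UMIs in all (log2 -1.85, SE 0.80). *Ptgfr* in CD-PCs had 54.2, 71.4, 139 and 86.5 CPM, higher in both knockout mice (log2 0.84, SE 0.32, adjusted p = 1.00). The Aqp3-high and CCD-like nuclei, which held nearly all *Ptgfr* of the class, were 29.3%, 43.4%, 50.8% and 42.6% of the CD-PC nuclei, so their share was lowest in the mouse with the lowest *Ptgfr* and highest in that with the highest. Their part in the difference was not tested further, but within Aqp3-high nuclei the log2 fold change of *Ptgfr* was 0.37 (SE 0.29) and within CCD-like nuclei 0.41 (SE 0.44).

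In the CD-PC subclusters 22 pairs were tested, 0 were called, and 0 had an unadjusted p under 0.05, both by the quasi-likelihood test of edgeR and by DESeq2. Over all genes 0.00245% were called, and 2.83% had an unadjusted p under 0.05. All 10 pairs with at least 100 UMIs had a log2 fold change within 0.5 of 0, with a median of -0.19 and 2 of them higher in knockout mice, and in 2 of the 10, *Ptgs1* in Aqp3-high and in IMCD-like nuclei, the groups did not overlap, against 27.9% of all genes with as many UMIs. *Ptges* in IMCD-like nuclei, with 614 UMIs, had a log2 fold change of 0.00 (SE 0.32). *Ptges* in Aqp3-high nuclei, with 29 UMIs, moved with the choice of mice and settings. The log2 fold change was 1.21 (SE 0.85) with all mice, 3.98 (adjusted p = 0.0459) without control 1, -0.25 without control 2 and -0.19 without knockout 1. It was 3.22 in nuclei with under 1% mitochondrial UMIs (adjusted p = 1.00) and 0.50 with the replicate number as a block.

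Whether the genotype difference in CD-PCs was unlike that of the other 11 classes was tested as an interaction. Of 89 comparisons of the 9 genes, 0 were called by edgeR's quasi-likelihood test and 8 had an unadjusted p under 0.05. Over all genes 0.0549% were called and 3.43% had an unadjusted p under 0.05. The comparisons share the same CD-PC sums, so the 8 are not separate events. They were *Ptgfr* against the proximal tubule, TAL, DCT, CNT and podocytes, *Hpgd* against endothelial and immune cells, and *Ptger3* against the CNT. ICs, among the other classes, are collecting duct cells too. The lowest adjusted p was that of *Ptgfr* in CD-PCs against the TAL (0.094, a log2 difference of 1.17 with SE 0.30). Of the other genes of the pathway 17 could be tested, in 140 pairs with a class, and 0 were called. Those with an unadjusted p under 0.05 were *Cbr1* in the thin limb (log2 0.81) and ICs (1.06), *Pla2g4a* in interstitial cells (-1.41) and *Tbxas1* in immune cells (-1.79), 4 of the 140 pairs against the 2.95% of all genes given above, and DESeq2 had 0 such pairs. The median log2 fold change of these other genes was between -0.39 and 0.21 in a class, and that of all genes between -0.03 and 0.03.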

How the data were processed

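Raw UMI counts per gene and barcode were deposited for 4 libraries, 1 per mouse. Per the labels and the study's methods, the authors made these counts with Cell Ranger 3.0.2 against mm10, with no normalization and empty droplets included. Whether intronic reads were counted is not given in the sources used here. The 9 genes, the gene lists and the tests were chosen with earlier results of these data known.

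Following the study's methods, nuclei were the 10000 barcodes with most UMIs per library, less those with 500 or fewer genes, 4000 or more genes, or a mitochondrial share of 5% or more. Integration and clustering used Seurat 5.3.0 in R 4.3.3 (2000 variable genes without those of the pathway, 30 dimensions, resolution 0.5), and CD-PCs again with resolution 0.2. Clusters were named from marker lists, with at least 3 markers found. The cluster first named interstitial was divided along the clusters of resolution 0.8, a choice made after the clusters were seen. Of its nuclei, 238 were kept as interstitial cells and 254 were left out as mixed. Resolution 0.8 also gives 238 interstitial nuclei, so that alternative does not vary this class. The limits for markers and for damaged or mixed clusters, which were left out, were set after the clusters were seen. These were 853 damaged, 656 mixed and 176 unnamed nuclei, and 262 CD-PC nuclei in damaged or mixed subclusters. Called doublets, from 4.34% to 6.40% of a library, were kept and left out as an alternative.

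UMIs were summed per mouse and class. A gene was tested where the mice had 10 UMIs or more in all, with edgeR 4.0.16 (TMM, quasi-likelihood test, Benjamini-Hochberg adjustment over all genes tested in a contrast), because nuclei of a mouse are not replicates. The fit draws on all genes for the spread of each, and the order of levels was fitted over all classes, or all subclusters, together. SEs and p-values between classes and between clusters can thus be far smaller than the spread of 4 mice alone would give. All 9 members are named, of the other pathway genes those with a mean of at least 50 CPM in a class, and for each member the 3 genes with the highest r among genes with at least 200 UMIs. *Nos1* and *Pappa2* were looked at since they stand on the macula densa list, of which *Avpr1a* and *Robo2* were not counted. The tests between CD-PC subclusters and between clusters, and the *Ptger2*, *Ptgir* and PGD2 receptor counts, were added after values were seen. Free RNA was read from barcodes with under 100 UMIs. Alternatives were DESeq2 1.42.0, no TMM, filterByExpr or no filter for low counts, a replicate block, free RNA subtracted, doublets left out, under 1% mitochondrial UMIs, resolutions of 0.8 (0.4 for CD-PCs), control mice only, the CD-PC nuclei set aside put back, and each mouse left out. The scripts were tested on simulated data.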

Additional observations from a re-analysis of the deposited data

How the results depend on the processing

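No genotype difference of the 9 genes in the classes was called in any alternative, nor was one of the pathway list or of the interaction. In the CD-PC subclusters the number called was 0 to 1 when single mice were left out, the 1 being *Ptges* in Aqp3-high nuclei without control 1. The neighbor pairs of subclusters that differed were 6 in the fit reported, 2 in control mice only and 2 to 4 with each mouse left out. Those of classes were 11 to 19 over all alternatives. Of the 43 single differences of level that were called, 27 were called in every alternative, 0 changed sign, and 55 of 339 refits lost the call; the cause was not tested. Control and knockout libraries share the numbers 1 and 2, and deviations of same-numbered mice correlated at r between 0.26 and 0.58 in 11 classes, but 2 pairs cannot show that the numbers pair the mice. With the replicate number as a block (replicate block), 0 pairs of the 9 genes in classes, 0 in subclusters and 0 of the pathway list were called, with a lowest adjusted p of 0.0548, while calls over all genes in the 12 classes went from 5 to 443. Counts limit the rest: *Ptgs2* has 25 UMIs, immune cells 108 nuclei and podocytes 111 nuclei, and the lone mouse left in a group is assumed to vary like the others.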
